A study of Mus musculus with 17 samples.

Results

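The genes described here are the collagens and laminins of the mouse corpus callosum, the large proteins that build basement membranes and the fibrous matrix between cells. They were chosen by name, as every protein-coding gene whose symbol is Col or Lama, Lamb or Lamc followed by its chain numbers, without regard to any measured value. This gave 55 of the 21897 protein-coding symbols, and all 55 were listed in every library. They comprised 6 basement membrane collagens (the type IV chains), 11 fibrillar collagens, 27 other collagens and 11 laminin chains. Other collagens here means those that coat fibrils, cross the cell membrane, or form beaded filaments and networks. All animals were male mice of the genotype GFAP-Cre+/- Rpl22HA/wt. In these mice a Cre recombinase driven by the GFAP promoter switches on an HA epitope on the ribosomal protein Rpl22, so that ribosomes of the targeted cells can be pulled down with the RNA they carry (the RiboTag method). Cuprizone mice were fed chow with 0.2% cuprizone, a copper chelator toxic to oligodendrocytes, for 5 weeks from an age of 8 to 9 weeks and then regular chow. Mock mice of the same age and genotype were kept on a normal diet. The corpus callosum was dissected at 5 weeks, when demyelination is acute, at 5.5 weeks, early in remyelination, and at 7 weeks, when remyelination is late. RNA of the immunoprecipitate was then sequenced.

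Of 17 deposited libraries, 8 repeated another library of their group. In each of these, between 46.6% and 96.4% of genes with 500 or more counts equalled the other library plus an integer from 1 to 10, against at most 4.26% within 10 counts in pairs that did not repeat. Counting repeats as 1 sample left 3 cuprizone and 2 mock libraries at 5.5 weeks, and 1 cuprizone and 1 mock library at each of 5 and 7 weeks. Values at 5 and 7 weeks therefore compare a pair of libraries and carry no replicate check. The 5-week libraries are Batch1 in the labels and all others Batch2, so a difference between 5 weeks and a later week cannot be told apart from the batch. Totals ran between 20797535 and 30400048 counts, and levels are given as CPM, TMM-scaled counts relative to the library total. The libraries are labelled astrocytes, and all 10 astrocyte markers were detected in each of the 9. At 5.5 weeks these markers summed to 13800 to 16200 CPM in cuprizone and 10560 to 11060 CPM in mock. By the edgeR test described below, 1 of these 10 was called higher and 0 lower, beside 1.08% and 0.392% of all genes. Their log2 fold changes ran from -0.31 to 2.24, with a median of -0.0045 and 5 of 10 above 0. Transcripts of mature oligodendrocytes were as abundant in the 5.5-week libraries, with 10 markers summing to 18530 to 22690 CPM in cuprizone and 15480 to 16210 CPM in mock. In RNA from such a mixture, fewer cells of a type and less RNA per cell cannot be told apart.

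Collagens are trimers wound into a triple helix, which needs 1 glycine in every 3 residues of each chain. Fibrillar collagens have a long unbroken helix and assemble into fibrils, whereas type IV chains have a helix with many interruptions and link into the sheet of the basement membrane. FACIT collagens, fibril-associated collagens with interrupted triple helices, sit on the surface of fibrils. Laminins are cross-shaped trimers of an alpha, a beta and a gamma chain that start basement membrane assembly and bind cell-surface receptors. In brain, basement membranes lie around blood vessels and under the pia, where the endfeet of astrocytes attach to them.

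The class differences are visible in the coding sequences. The longest annotated coding sequence of each gene in GENCODE release M21 (GRCm38) was searched for runs of the codon pattern GGN-NNN-NNN, in which GGN codes for glycine. The 11 fibrillar collagens had a longest run of 216 to 344 repeats (median 338) and only 2 to 5 runs of 3 or more repeats. The 6 type IV chains had a longest run of 39 to 66 repeats (median 43.5) but 23 to 27 separate runs. Other collagens fell between 23 and 113 repeats, and no laminin exceeded 3. The first 30 codons of the longest run are printed for the 4 genes that results below turn on, in lower case with the glycine codons in capitals.
Col9a3: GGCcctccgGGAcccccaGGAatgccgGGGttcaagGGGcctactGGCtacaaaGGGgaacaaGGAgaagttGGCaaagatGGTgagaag
Col20a1: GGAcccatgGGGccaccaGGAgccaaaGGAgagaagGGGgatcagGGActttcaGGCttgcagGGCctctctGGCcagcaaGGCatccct
Col4a5: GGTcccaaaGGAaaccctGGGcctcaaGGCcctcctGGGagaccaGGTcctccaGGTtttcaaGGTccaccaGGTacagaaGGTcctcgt
Col1a1: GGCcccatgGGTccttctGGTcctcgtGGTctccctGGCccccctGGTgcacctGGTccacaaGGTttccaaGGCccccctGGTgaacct
These stretches start at codon 177 of Col9a3, 1168 of Col20a1, 1249 of Col4a5 and 168 of Col1a1. All 4 keep the 3-codon spacing without a break, and what sets them apart is the length over which it lasts: 113 repeats in Col9a3, 32 in Col20a1, 42 in Col4a5 and 338 in Col1a1.

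**Figure D1:**
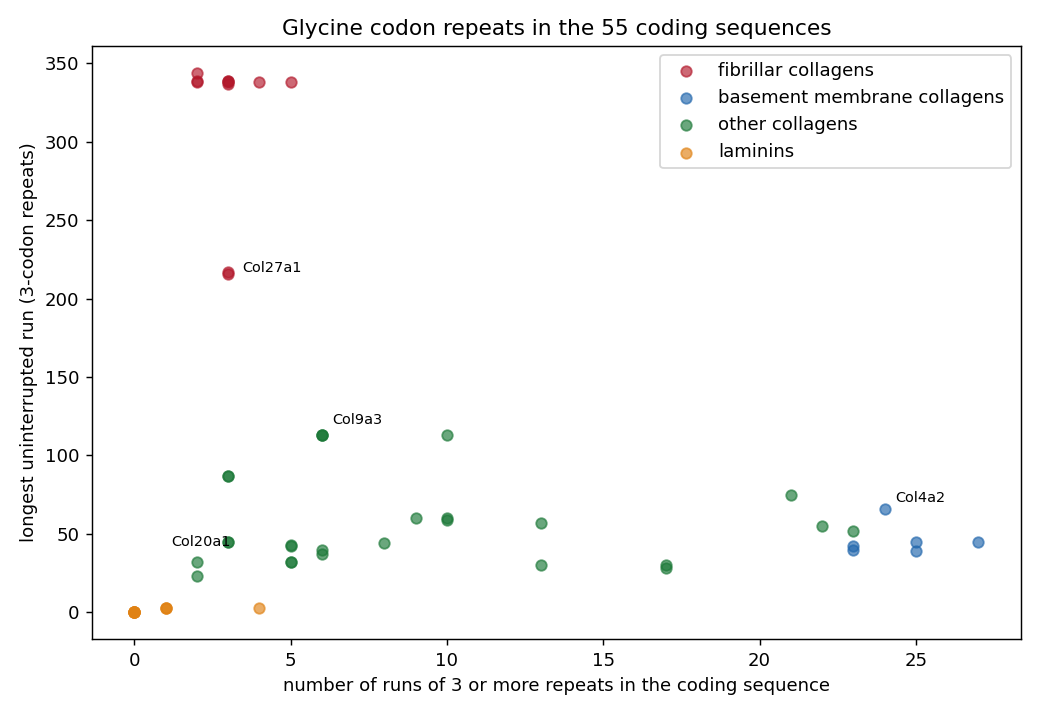
Each point is 1 of the 55 coding sequences, with the number of runs of 3 or more glycine codon repeats on the horizontal axis and the longest run, in 3-codon repeats, on the vertical axis (points can overlap). Fibrillar collagens sit at 216 to 344 repeats with few runs, type IV chains at 39 to 66 repeats with 23 to 27 runs, and laminins near 0.

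At 5.5 weeks most members were present at low levels. Of the 55, 31 averaged 1 CPM or more over the 5 libraries, 12 averaged 5 CPM or more in at least one of the groups, and 15 never exceeded 0.5 CPM in any of them. Summed over all 55, the level was 180.5 to 210.8 CPM in cuprizone and 142.8 to 174.9 CPM in mock, so that the groups did not overlap. Without Col9a3 the sums were 138.2 to 162.0 CPM in cuprizone and 124.0 to 149.6 CPM in mock, which overlapped. Per kilobase of exon, which allows genes to be compared, Col9a3 stood first at 12.3 CPM per kb in cuprizone and 5.74 CPM per kb in mock, 4.12 times the next gene over all 5 libraries. Lamb2, which encodes the laminin beta-2 chain, followed with 2.495 CPM per kb in cuprizone and 2.11 CPM per kb in mock, and Col11a2, a chain of a minor cartilage fibril collagen, with 1.95 CPM per kb in cuprizone and 1.61 CPM per kb in mock. Lamc1, Col4a2, Lamb1, Col25a1 and Col9a2 were lower, at 1.22 to 1.05 CPM per kb over all 5 libraries. Among these 5 genes the single libraries overlapped, so their order is within the spread. The classical fibrillar genes were far down, with Col1a1 at 0.116 CPM per kb in cuprizone and 0.246 CPM per kb in mock.

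**Figure D2:**
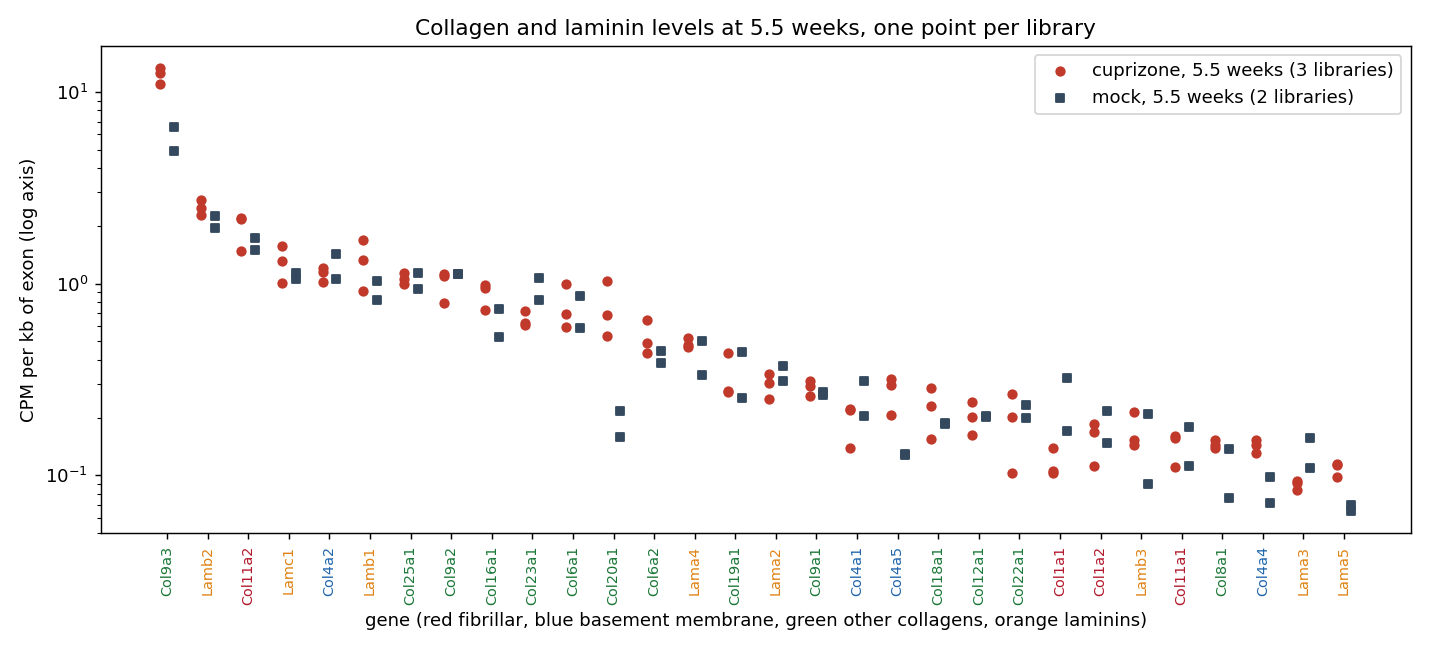
Level of 30 of the 31 genes averaging 1 CPM or more at 5.5 weeks, in CPM per kb of exon on a log axis, with 1 point for each of 3 cuprizone and 2 mock libraries and genes ordered by their mean. Col9a3 lies above every other gene in all 5 libraries. The Col9a3, Col20a1, Col4a5, Col4a4 and Lama5 points of cuprizone all lie above those of mock, as do those of Lamb2 and Col8a1 by a small margin. For Col1a1, Lama3 and Col23a1 all cuprizone points lie below those of mock.

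Early remyelination was compared in 3 cuprizone against 2 mock libraries by edgeR's quasi-likelihood test over 16086 genes, of which 1.08% were called higher and 0.392% lower at a Benjamini-Hochberg adjusted p of 0.05, 1.47% together. Of the 55 members, 41 passed the low-count filter, and 2 of them rose in cuprizone while none fell. Both are FACIT collagens of chromosome 2, Col9a3 and Col20a1. DESeq2 and limma-voom called the same 2 genes higher and none lower. At an unadjusted p of 0.05 edgeR had 9 members higher and 2 lower, 26.8% of the 41 against 10.9% of all genes tested. The other 14 members were too low to test, averaging 0 to 0.38 CPM. All cuprizone libraries lay above both mock libraries for 10 of the 41 members, 24.4% against 13.2% of all genes, and below both for 4, 9.76% against 14.8%. The median log2 fold change of the 41 was 0.18, beside 0.0021 for all genes tested.

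Col9a3, which encodes 1 of the 3 chains of type IX collagen, had 51.3, 48.2 and 42.3 CPM in the cuprizone libraries against 25.3 and 18.9 CPM in the mock libraries. Every cuprizone library was above both mock libraries by a wide margin. Its log2 fold change was 1.10 ± 0.15 (SE), with an edgeR Benjamini-Hochberg adjusted p of 0.00464. Col9a3 alone made up 23.6% of the summed CPM of all members in cuprizone and 13.9% in mock. Without mock replicate 3 its edgeR adjusted p was 0.0540, with a log2 fold change of 0.91. The genes of its partner chains gave other values. Col9a1 averaged 1.46 ± 0.13 CPM in cuprizone (SD, n = 3) and 1.36 ± 0.03 CPM in mock (SD, n = 2), and Col9a2 averaged 3.10 ± 0.56 CPM in cuprizone and 3.46 ± 0.01 CPM in mock. Their log2 fold changes were 0.10 ± 0.26 and -0.16 ± 0.22 (SE), each smaller than its error, and the differences between chains were not tested.

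Col20a1, another FACIT chain, had 5.30, 3.52 and 2.73 CPM in the cuprizone libraries against 1.11 and 0.817 CPM in the mock libraries. The groups were far apart although the cuprizone libraries themselves spread over a wide range. The log2 fold change was 2.00 ± 0.33 (SE), the largest of the 41 tested members, with an edgeR Benjamini-Hochberg adjusted p of 0.0114. With only 1 mock library in the edgeR fit, its adjusted p was 0.0926 without replicate 1 and 0.156 without replicate 3, the lone mock library being assumed to vary like the cuprizone libraries. The other 6 tested FACIT genes were not called, with log2 fold changes from -0.19 for Col22a1, a collagen of tissue junctions, to 0.48 for Col16a1.

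Markers of other cells differed between the groups for some cell types and overlapped for others. The 11 endothelial markers summed to 6.93 to 10.1 CPM in cuprizone and 8.72 to 11.5 CPM in mock, and the groups overlapped. Esam was the highest of them at 2.96 to 3.28 CPM in cuprizone and 3.49 to 4.12 CPM in mock, and Cdh5 was below 0.2 CPM in all 5 libraries. The endothelial sums were close to those of the 6 basement membrane collagens, 11.4 to 14.4 CPM in cuprizone and 10.8 to 13.8 CPM in mock. The 11 pericyte and smooth muscle markers summed to 41.2 to 49.1 CPM in cuprizone and 38.2 to 45.7 CPM in mock, and the 12 fibroblast and meningeal markers to 74.6 to 111 CPM in cuprizone and 72.0 to 105 CPM in mock. Oligodendrocyte precursor markers were higher, at 275 to 351 CPM in cuprizone and 238 to 249 CPM in mock, and choroid plexus markers at 28.1 to 49.6 CPM in cuprizone and 11.7 to 13.4 CPM in mock, led by Ttr, the transthyretin gene. The 10 microglial markers summed to 42.0 to 54.8 CPM in cuprizone and 30.9 to 36.8 CPM in mock. The part of these cells in the rise of Col9a3 and Col20a1 was not tested.

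No basement membrane collagen passed the adjusted threshold at 5.5 weeks, and their 6 values did not share a direction. DESeq2 and limma-voom also called none, and 3 of the 6 had an unadjusted edgeR p under 0.05. Col4a2, which forms trimers with Col4a1 in nearly every basement membrane, had 8.01, 7.58 and 6.75 CPM in cuprizone against 9.42 and 7.02 CPM in mock, and the groups overlapped. Its log2 fold change was -0.14 ± 0.18 (SE), and that of Col4a1 was -0.42 ± 0.30. Values for the chains of the rarer type IV trimers, best known from the kidney glomerulus, lay on the other side of 0. Col4a5 had 2.13, 1.99 and 1.38 CPM in cuprizone against 0.866 and 0.854 CPM in mock, without overlap, and a log2 fold change of 1.09 ± 0.30 (SE) with an edgeR Benjamini-Hochberg adjusted p of 0.139. With no filter on low counts that adjusted p was 0.0486. Col4a4 at 1.52 ± 0.12 CPM in cuprizone and 0.901 ± 0.196 CPM in mock (SD, n = 3 and 2) and Col4a3 at 0.422 CPM in cuprizone and 0.108 CPM in mock also did not overlap. Their log2 fold changes of 0.75 and 1.90 had adjusted p-values of 0.353 and 0.212 by the same edgeR test with Benjamini-Hochberg adjustment. The class median log2 fold change was 0.81, and 0.27 without cuprizone replicate 2.

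Fibrillar collagens were scattered around 0, with a median log2 fold change of -0.01 over 9 tested genes and a range from -1.07 to 1.69. The median was 0.38 without mock replicate 1 and 0.24 without cuprizone replicate 3. None passed in edgeR, DESeq2 or limma-voom, and 2 above and 1 below mock had an unadjusted edgeR p under 0.05. Col11a2, by far the most abundant of them per length, had 14.9, 15.2 and 10.1 CPM in cuprizone against 11.8 and 10.3 CPM in mock, and the groups overlapped. Col1a1, the main chain of type I collagen, had 0.912, 0.677 and 0.691 CPM in cuprizone against 2.11 and 1.11 CPM in mock. These libraries did not overlap, yet the log2 fold change of -1.07 ± 0.34 (SE) had an edgeR Benjamini-Hochberg adjusted p of 0.213. Its partner Col1a2 gave -0.23 ± 0.28. Col27a1, a fibrillar collagen of cartilage, and Col5a2, a chain of type V collagen, were at log2 fold changes of 1.69 and 0.90 from levels under 1.1 CPM, with adjusted p-values of 0.276 and 0.370 in that edgeR test with Benjamini-Hochberg adjustment. Col24a1 and Col3a1 were too low to test.

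Laminins had the narrowest range of the 4 classes at 5.5 weeks. None of 9 tested chains passed in edgeR, DESeq2 or limma-voom, 1 had an unadjusted edgeR p under 0.05 (Lama5), 7 had a positive log2 fold change, and the median was 0.23 with a range from -0.56 to 0.68. Without mock replicate 3 the class median was 0.01, and without mock replicate 1 it was 0.39. Lamb2 had 16.6, 15.1 and 13.9 CPM in cuprizone against 13.8 and 11.9 CPM in mock, just without overlap, and a log2 fold change of 0.24 ± 0.15 (SE). Lamb1, the beta-1 chain, had 16.8, 9.03 and 13.2 CPM in cuprizone against 10.2 and 8.17 CPM in mock. Its cuprizone libraries spread so far that they reached into the mock range, and the log2 fold change was 0.50 ± 0.23 (SE) with an edgeR Benjamini-Hochberg adjusted p of 0.465. Lamc1, the gamma chain of most laminins, had 10.9, 12.9 and 8.33 CPM in cuprizone against 9.42 and 8.76 CPM in mock, and the groups overlapped. The alpha chains Lama2, mutated in a congenital muscular dystrophy, and Lama4, a vascular laminin chain, averaged 4.84 ± 0.72 and 5.89 ± 0.35 CPM in cuprizone (SD, n = 3), against 5.57 ± 0.69 and 5.02 ± 1.43 CPM in mock (SD, n = 2), with overlap in each. Lama1 and Lamc3 were too low to test.

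Among the remaining collagens the transmembrane collagen Col25a1, first found in amyloid plaques, had 13.7, 12.8 and 14.7 CPM in cuprizone against 14.7 and 12.1 CPM in mock, a log2 fold change of 0.03 ± 0.15 (SE). Col23a1, also a transmembrane collagen, had 3.48, 4.11 and 3.57 CPM in cuprizone against 6.13 and 4.72 CPM in mock. All 3 cuprizone libraries were below both mock libraries, but with a log2 fold change of -0.55 ± 0.20 (SE) the edgeR Benjamini-Hochberg adjusted p was 0.310. Col16a1 had 6.42, 6.64 and 4.91 CPM in cuprizone against 4.99 and 3.56 CPM in mock. The beaded filament genes Col6a1 and Col6a2 had log2 fold changes of 0.07 ± 0.27 and 0.33 ± 0.23 (SE), with Col6a2 at 4.05, 5.37 and 3.61 CPM in cuprizone against 3.71 and 3.19 CPM in mock. Over the 27 genes of the class, 17 were tested, with a median log2 fold change of 0.07.

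**Figure D3:**
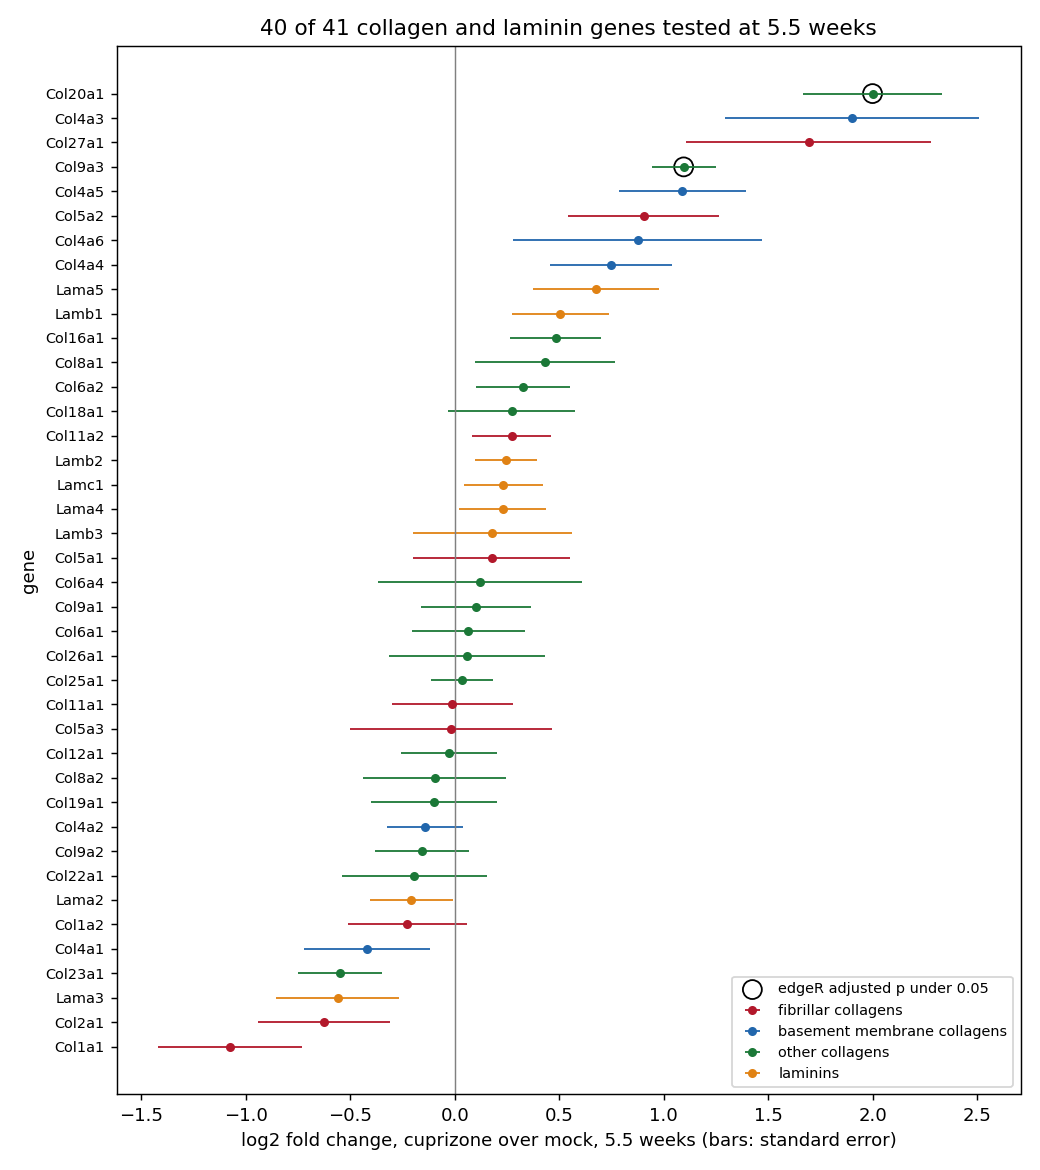
Log2 fold change, cuprizone over mock at 5.5 weeks, of 40 of the 41 tested members, with bars for the standard error and colours for the class. Circles mark Col20a1 at 2.00 and Col9a3 at 1.10, the genes called by edgeR, and Col1a1 lies lowest at -1.07.

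The machinery that makes, cuts and senses collagen was also counted at 5.5 weeks. Of 19 genes for collagen-modifying enzymes and chaperones, all tested, 1 rose and none fell, beside 1.08% and 0.392% of all genes. It was P4ha3, a catalytic subunit of prolyl 4-hydroxylase, with 11.1, 10.1 and 6.95 CPM in cuprizone against 4.64 and 4.83 CPM in mock and an edgeR Benjamini-Hochberg adjusted p of 0.0477. Of 17 receptor genes 14 were tested and 1 rose, Ddr1, a receptor tyrosine kinase activated by collagen, with 142, 132 and 109 CPM in cuprizone against 86.9 and 71.4 CPM in mock and an adjusted p of 0.0323 in the same edgeR test with Benjamini-Hochberg adjustment. Of 15 matrix-degrading proteases 11 were tested and 1 rose, Mmp19, a matrix metalloproteinase, with 2.13, 1.083 and 1.497 CPM in cuprizone against 0.242 and 0.483 CPM in mock. Its log2 fold change was 2.13 ± 0.43 (SE), with an edgeR Benjamini-Hochberg adjusted p of 0.0313. None of 9 tested genes of 13 for procollagen processing and crosslinking and none of 13 basement membrane partners passed. At an unadjusted edgeR p of 0.05, 2 genes of each of these lists did, beside 10.9% of all genes, and DESeq2 called 1 partner gene higher. limma-voom called neither P4ha3 nor Mmp19.

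Acute demyelination at 5 weeks rests on 1 cuprizone and 1 mock library, so ratios are given with exact Clopper-Pearson 95% intervals that cover counting error only. Members were described first among genes averaging 1 CPM or more at 5.5 weeks, a choice made after seeing the data so that the level at 5 weeks does not select them. Of 31 such members 6 were at least 2-fold higher in cuprizone and 13 at least 2-fold lower, 19.4% and 41.9%. Among all 13786 such genes 10.9% were higher and 14% lower, and among genes of similar level, averaging 1 to 20 CPM in 5.5-week mock, 18.3% were higher and 18% lower. With the level measured at 5 weeks itself, at 5 CPM or more in at least one of the libraries, 9 members qualified, of which none was higher and 6 were lower, beside 8.94% and 12.1% of all genes. The summed level of all 55 was 68.5 CPM in cuprizone and 110 CPM in mock.

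Large differences below mock at 5 weeks came from different classes. Col25a1 had 0.791 CPM in cuprizone and 13.4 CPM in mock, 16.9-fold lower (95% interval 10.3 to 29.4). Lamb3, a laminin beta chain, had 2 counts in cuprizone and 59 in mock, a ratio of 30.9 (8.18 to 261). Col22a1 had 0.884 CPM in cuprizone and 7.16 CPM in mock, 8.10-fold lower (5.00 to 13.8). The basement membrane chains Lamb2, Col4a2 and Lama4 were lower by smaller ratios. Lamb2 had 1.49 CPM in cuprizone and 7.06 CPM in mock, 4.74-fold lower (3.22 to 7.19), Col4a2 had 1.16 CPM in cuprizone and 5.07 CPM in mock, 4.35-fold lower (2.79 to 7.03), and Lama4 had 2.75 CPM in cuprizone and 7.65 CPM in mock, 2.79-fold lower (2.05 to 3.82). In 5.5-week libraries none of these 6 genes had been called.

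Col4a4, Col4a5 and the alpha laminins Lama5 and Lama3 were above mock in the same pair of libraries, in which the alpha chain Lama4 was below it. The alpha chain Lama2 had a ratio of 1.285 (95% interval 0.77 to 2.155), an interval that included 1. Col4a4 had 101 counts in cuprizone and 4 in mock, a ratio of 24.1 (95% interval 9.14 to 90.3). Col4a5 had 32 counts in cuprizone and 0 in mock, at least 10.2-fold higher against a floor of 3 counts per library, and Lama5, an alpha chain of mature vessel basement membranes, had 29 counts in cuprizone and 0 in mock, at least 9.24-fold higher. Within type IV collagen, then, Col4a1 and Col4a2 were below mock while Col4a4 and Col4a5 were above it. Col4a1 rested on 0 counts in cuprizone and 7 in mock, at least 2.44-fold lower against that floor. Of these chains only Col4a2, with 25 counts in cuprizone and 104 in mock, had more than a few counts in both libraries. Col8a1, a network collagen of vessel walls, had 2.98 CPM in cuprizone and 0.585 CPM in mock, 5.10-fold higher (2.73 to 10.4). Of the FACIT genes called at 5.5 weeks, Col20a1 had 4.70 CPM in cuprizone and 1.75 CPM in mock, 2.68-fold higher (1.82 to 4.04), and Col9a3 had 14.9 CPM in cuprizone and 9.55 CPM in mock, 1.57-fold higher (1.31 to 1.88). The sixth gene past 2-fold, Lama3, had 9 counts in cuprizone and 0 in mock.

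Zeros were frequent among members at 5 weeks. Of the 31 members averaging 1 CPM or more at 5.5 weeks, 5 had no count in the cuprizone library and 7 none in the mock library, 16.1% and 22.6%, against 0.979% and 1.03% of all such genes. Col1a1, Col6a2 and Col18a1, the last a multiplexin whose cleaved end is endostatin, had no count in either library, although Col6a2 averaged 4.34 CPM in cuprizone and 3.45 CPM in mock at 5.5 weeks. The batches list different identifiers, 55471 in the 5-week libraries and 55414 in the others, but all 55 members are in both lists. Which genome build was used for which batch is not given, and its part in these zeros was not tested. Endothelial markers summed to 2.28 CPM in cuprizone and 11.98 CPM in mock at 5 weeks, with 6 of 11 at 0 in cuprizone and 4 of 11 at 0 in mock, among them Tek, Tie1 and Cdh5 in both. Pericyte markers summed to 31.2 CPM in cuprizone and 31.5 CPM in mock, and mature oligodendrocyte markers to 10490 CPM in cuprizone and 15310 CPM in mock. Fibroblast, choroid plexus and neuronal sums were lower, at 32.4, 10.3 and 9475 CPM in cuprizone against 50.5, 31.8 and 13250 CPM in mock. Astrocyte, microglial and oligodendrocyte precursor sums were higher, at 19030, 71.2 and 296 CPM in cuprizone against 9108, 40.4 and 198 CPM in mock. Of the 10 astrocyte markers 1 was past 2-fold higher and 0 lower. The part of these cells in the member values was not tested.

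At 7 weeks the members lay above mock in all 4 classes. Of the same 31 members 22 were at least 2-fold higher in the cuprizone library and none was lower, 71%, against 12.1% higher and 2.11% lower among all genes averaging 1 CPM or more at 5.5 weeks, and 21.7% higher and 2.44% lower among genes averaging 1 to 20 CPM in 5.5-week mock. With 5 CPM or more at 7 weeks as the minimum, 18 of 24 members were higher and none lower, beside 13.5% and 1.75% of all genes. The summed level of all 55 was 421 CPM in cuprizone and 136 CPM in mock, and all 55 members were above mock by some amount, as were 73% of all genes with a count in either library. Each of these values compares 1 library with 1 library. In an edgeR fit of all 9 libraries, in which the lone 7-week libraries have no spread of their own and are assumed to vary like the 5.5-week ones, the log2 fold change of cuprizone over mock was called greater at 7 than at 5.5 weeks for 25 of 54 members and smaller for 1, Col9a3, beside 10.3% and 6.92% of all genes at a Benjamini-Hochberg adjusted p of 0.05.

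All 6 fibrillar collagens that reached 5 CPM were past 2-fold. All but Col11a2 reached it in the cuprizone library alone, so this minimum itself favours ratios above mock. Without that minimum, all 4 with 1 CPM or more at 5.5 weeks were past 2-fold, with a median log2 ratio of 2.57 beside 2.42 for basement membrane collagens. Col27a1 and Col5a1 were below that 5.5-week level. Col27a1 had 9.46 CPM in cuprizone and 0.212 CPM in mock, 44.7-fold higher (95% interval 20.3 to 123, from 250 and 6 counts). Col1a1 had 10.1 CPM in cuprizone and 0.599 CPM in mock, 16.8-fold higher (10.3 to 29.3), and Col1a2 had 8.74 CPM in cuprizone and 1.38 CPM in mock, 6.36-fold higher (4.51 to 9.17). Both chains of type I collagen were thus well above mock here, whereas at 5.5 weeks Col1a1 had stood below it in all 3 cuprizone libraries. Col5a1, the type V chain that nucleates fibrils, was 8.62-fold higher (5.85 to 13.2) with 8.82 CPM in cuprizone and 1.02 CPM in mock. Col11a1 had 11.7 CPM in cuprizone and 1.97 CPM in mock, 5.94-fold higher (4.46 to 8.05), and Col11a2 had 23.3 CPM in cuprizone and 9.62 CPM in mock, 2.42-fold higher (2.10 to 2.80).

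All 4 basement membrane collagens with 1 CPM or more at 5.5 weeks were past 2-fold at 7 weeks. Col4a1 had 8.13 CPM in cuprizone and 0.952 CPM in mock, 8.55-fold higher (95% interval 5.71 to 13.3), and its partner Col4a2 had 24.1 CPM in cuprizone and 5.43 CPM in mock, 4.43-fold higher (3.71 to 5.32). Col4a5 had 5.03 CPM in cuprizone and 0.705 CPM in mock, 7.14-fold higher (4.44 to 12.1), and Col4a4 was 2.74-fold higher (1.603 to 4.847). Here the chains of both kinds of type IV trimer were on the same side of mock. At 5 weeks they were on both sides, there from few counts in at least 1 library for all but Col4a2.

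Of the other collagens with 1 CPM or more at 5.5 weeks, 10 of 14 were past 2-fold, with the beaded filament gene Col6a1 in front. It had 36.3 CPM in cuprizone and 3.35 CPM in mock, 10.8-fold higher (95% interval 8.77 to 13.5). Col6a2 had 11.99 CPM in cuprizone and 2.64 CPM in mock, 4.54-fold higher (3.52 to 5.92). The FACIT genes Col19a1, Col16a1 and Col12a1 were 5.74-fold (4.43 to 7.51), 4.63-fold (3.72 to 5.81) and 4.60-fold (3.49 to 6.15) higher, with 14.2, 16.5 and 10.2 CPM in cuprizone and 2.47, 3.56 and 2.22 CPM in mock. Col18a1 had 5.33 CPM in cuprizone and 1.41 CPM in mock, 3.78-fold higher (2.65 to 5.52), and Col25a1 had 21.5 CPM in cuprizone and 10.7 CPM in mock, 2.01-fold higher (1.74 to 2.32). The genes called at 5.5 weeks were not in front: Col20a1 was 2.56-fold higher (1.69 to 3.94) with 3.06 CPM in cuprizone and 1.20 CPM in mock, and Col9a3 was 1.35-fold higher (1.210 to 1.496) with 29.96 CPM in cuprizone and 22.3 CPM in mock.

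Laminins had the smallest ratios, with 4 of 9 past 2-fold and a median log2 ratio of 0.96 against 2.42 for basement membrane collagens, 2.57 for fibrillar and 1.54 for other collagens. Lamb2 had 32.9 CPM in cuprizone and 10.96 CPM in mock, 3.00-fold higher (95% interval 2.63 to 3.43), and Lamc1 had 18.3 CPM in cuprizone and 8.74 CPM in mock, 2.10-fold higher (1.79 to 2.45). Lama5 was 5.37-fold higher (3.44 to 8.70) with 4.54 CPM in cuprizone and 0.846 CPM in mock, and Lama3 was 2.80-fold higher (1.79 to 4.50). Lama2, Lama4 and Lamb1 were between 1.56-fold and 1.95-fold higher. Lamb3 had a ratio of 1.27 (0.777 to 2.08), an interval that included 1.

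**Figure D4:**
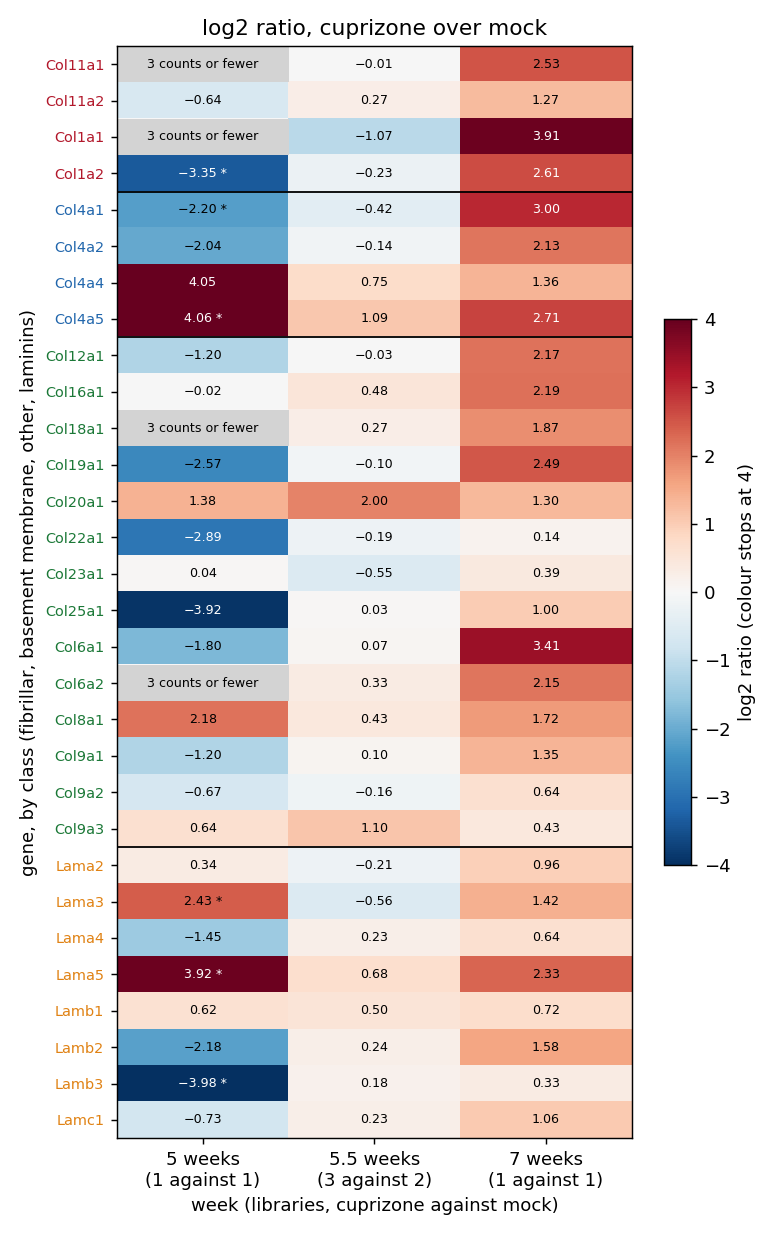
Log2 ratio of cuprizone over mock for 30 of the 31 members averaging 1 CPM or more at 5.5 weeks, by class, at 5, 5.5 and 7 weeks. An asterisk marks a pair in which 1 library had 3 counts or fewer, where the ratio depends on the prior count of 2, and grey marks pairs with no more than 3 counts in either library. The 7-week column has no negative value, and the 5-week column has both signs within type IV collagen, within other collagens and within laminins.

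The same 7-week cuprizone library carried far more RNA of vascular cells and microglia than its mock library. All 11 endothelial markers were past 2-fold, summing to 337 CPM in cuprizone and 10.2 CPM in mock, with Cldn5 at 62.8 CPM in cuprizone and 0.493 CPM in mock. The 11 pericyte and smooth muscle markers summed to 331 CPM in cuprizone and 40.0 CPM in mock, and all 10 microglial markers were past 2-fold with a sum of 832 CPM in cuprizone and 48.9 CPM in mock. The 12 fibroblast and meningeal markers summed to 95.9 CPM in cuprizone and 67.8 CPM in mock. Of the 7 averaging 1 CPM or more at 5.5 weeks, 5 were past 2-fold higher and 0 lower, beside 12.1% and 2.11% of all such genes. The median log2 ratio of these 7 was 2.21. Within this list Dcn, which encodes decorin, was at 16.9 CPM in cuprizone and 19.2 CPM in mock, while Slc6a13 was at 8.78 CPM in cuprizone and 0.458 CPM in mock. Astrocyte markers summed to 13280 CPM in cuprizone and 11440 CPM in mock, with 1 of 10 past 2-fold higher, 0 lower and a median log2 ratio of 0.11. The library also had a count for 34576 genes, against 19496 to 23980 in the other 8 libraries used. The part of these cells and of the wider detection in the member values was not tested.

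**Figure D5:**
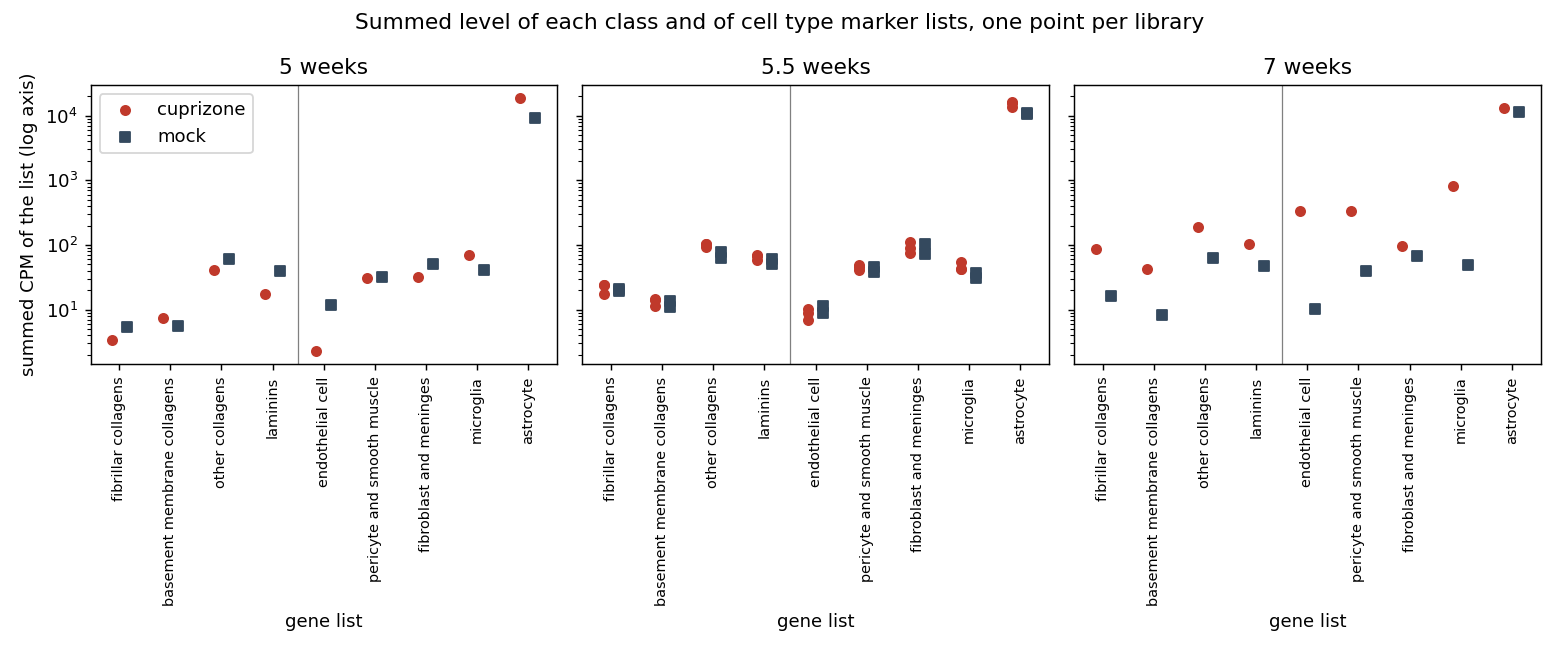
Summed CPM of each member class, left of the grey line, and of 5 cell type marker lists, right of it, on a log axis, with cuprizone points left of mock points at 5, 5.5 and 7 weeks. At 7 weeks the endothelial sum is 337 CPM in cuprizone and 10.2 CPM in mock, in the same library in which all 4 classes lie above mock.

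The pathway lists at 7 weeks also had more genes above than below mock, read beside 13.5% higher and 1.75% lower of all genes. Among genes at 5 CPM or more in at least one library, 7 of 11 basement membrane partners were past 2-fold higher and none lower, with Tinagl1 at 11.95 CPM in cuprizone and 0.458 CPM in mock, Nid1, the laminin and type IV collagen linker nidogen-1, at 5.18 CPM in cuprizone and 1.13 CPM in mock, and Pxdn, which crosslinks type IV collagen, at 26.8 CPM in cuprizone and 7.97 CPM in mock. Among receptors 5 of 12 were higher and none lower, led by the collagen-binding integrin Itga1 at 14.7 CPM in cuprizone and 0.564 CPM in mock. Collagen-modifying enzymes had 5 of 18 higher and none lower, among them P4ha3 at 14.2 CPM in cuprizone and 5.82 CPM in mock, and processing genes had 2 of 6, Bmp1 and Pcolce. Proteases had 1 of 8, Mmp16. At 5 weeks more genes were past 2-fold below than above mock in 4 of the lists, beside 8.94% higher and 12.1% lower of all genes: 2 of 13 modifying enzymes were higher and 7 lower, 1 of 9 receptors was higher and 5 lower, none of 7 proteases was higher and 5 were lower, and none of 7 basement membrane partners was higher and 2 were lower. The enzymes past 2-fold above mock were P4ha3 and P3h1, and P4ha3 had 17.3 CPM in cuprizone and 2.39 CPM in mock at 5 weeks.

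Of the 41 members tested at 5.5 weeks, only Col20a1 and Col4a5 were at least 2-fold above mock at all 3 weeks, a pattern picked out after the values were seen. Libraries of both groups were replicated at 5.5 weeks alone, where Col4a5 did not pass. Their promoters, the 250 bases before the RefSeq start (GRCm38.p6), are shown because these genes were high together. Capitals mark matches on either strand to the TATA box TATAAA, the GC box GGGCGG, the CCAAT box CCAAT, the STAT motif TTCNNNGAA or the SOX motif ACAATG.
Col20a1: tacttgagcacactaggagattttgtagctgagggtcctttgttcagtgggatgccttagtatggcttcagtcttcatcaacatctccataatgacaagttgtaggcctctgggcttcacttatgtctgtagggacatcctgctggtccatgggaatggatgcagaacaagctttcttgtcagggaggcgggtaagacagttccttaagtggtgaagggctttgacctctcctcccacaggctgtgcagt
Col4a5: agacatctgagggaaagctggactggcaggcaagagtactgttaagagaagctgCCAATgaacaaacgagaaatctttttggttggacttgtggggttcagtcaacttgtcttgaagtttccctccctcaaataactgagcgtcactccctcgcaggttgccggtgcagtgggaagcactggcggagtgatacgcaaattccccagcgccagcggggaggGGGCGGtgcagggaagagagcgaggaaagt
Col20a1 lies at chr2:180986285-180986534 on the plus strand, with 49.2% G and C, and held none of the 5 motifs. The Col4a5 window, chrX:141475169-141475418 on the plus strand, with 54.0% G and C, held a GC box that starts 30 bases and a CCAAT box that starts 196 bases before the start. A GC box was in 32.7% and a CCAAT box in 33.8% of 32851 RefSeq promoter windows of this length, and the TATA, STAT and SOX motifs in 12.4%, 7.0% and 10.7%. Of the 55 members 40 had a promoter entry. Col4a5 and Col4a6 are transcribed away from each other from starts 1342 bases apart, and Col4a1 and Col4a2 likewise from starts that overlap by 22 bases, so that reads there may be shared where counting did not use strand, which the sources used here do not state.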

How the data were processed

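RNA bound to HA-tagged ribosomes was sequenced from the corpus callosum of cuprizone and mock mice, with libraries prepared with the NEBNext Low input kit per the labels. The deposited values are raw counts per Ensembl gene, made with FastQC 0.11.9, STAR 2.5.4b and featureCounts 1.6.0 per the submitters' processing notes, without normalization by the authors as far as the values show. The deposited values of 8 libraries repeat another library of their group with small integers added, so only the library repeated was used. The notes name GRCm38 and GRCm39, but which build and which strand setting applied to which library is not given in the sources used here, so reads of overlapping or antisense genes cannot be separated and no gene coordinates are taken from the files. Symbols came from GENCODE M21, which names 99.4% of Batch1 and 94.0% of Batch2 identifiers.

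At 5.5 weeks edgeR 4.0.16 (R 4.3.3) was run on the counts with filterByExpr (minimum count 10), TMM scaling, robust quasi-likelihood dispersion, two-sided tests and Benjamini-Hochberg adjustment over 16086 genes at 0.05. The residual degrees of freedom were 3. The labels call the libraries biological replicates without tying each to an animal, so p-values measure the spread between these libraries. Simulated 5.5-week counts of 15856 genes, 200 of them altered, gave power of 59.7% at 1.5-fold, 94% at 2-fold and 98.5% at 4-fold, and 12 unaltered genes were called. The altered genes were drawn from any level above a minimum count, with a spread set by level alone. This power therefore does not carry over to members at low levels. Col4a3, Col4a5 and Col27a1 were past 2-fold above mock and Col1a1 past 2-fold below it at 5.5 weeks without being called. Alternatives used DESeq2 1.42.0 and limma 3.58.1. At 5 and 7 weeks, with 1 library per group, folds are plain ratios of TMM-scaled CPM, log2 ratios have a prior count of 2, and the libraries allow no test of their own. An alternative fit of all 9 libraries tests them only by assuming that they vary like the 5.5-week libraries. A floor of 3 counts per library applied to zeros. Intervals and floors cover counting error only, since reads without molecular identifiers are not independent molecules.

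Members, gene lists and tests were chosen with earlier results of these data known. Per-library values were given for members called at 5.5 weeks, at least 2-fold different at 5 or 7 weeks with 5 CPM or more in 1 of the libraries, or averaging 5 CPM or more in a 5.5-week group. Members outside these rules that are given with values, such as Col4a3, Col4a4, Col8a1, Lama3 and Lamb3, were chosen after their values were seen. Marker lists were those of 9 cell types. Neuronal markers summed to 7925 to 8862 CPM in cuprizone and 8222 to 8680 CPM in mock at 5.5 weeks. The values of 1 member are not reported here, although the counts, sums and medians include it.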

Additional observations from a re-analysis of the deposited data

Results flagged for a closer look

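In a fit of all 9 libraries, in which the lone 7-week libraries are assumed to vary like the 5.5-week ones, an assumption these data cannot check, the log2 fold change of cuprizone over mock was called different between 7 and 5.5 weeks for 26 of 54 members by edgeR with Benjamini-Hochberg adjustment over 20292 genes. The difference, 7 minus 5.5 weeks, was positive for 25 and negative for 1, beside 10.3% and 6.92% of all genes. Both weeks are of the same batch. Among members with values above, it was 5.00 for Col1a1 (edgeR adjusted p = 2.0e-05), 3.63 for Col27a1 and 2.79 for Col5a1 in the fibrillar class. That class also had differences of 2.76 for Col1a2, 2.44 for Col11a1 and 2.00 for Col5a2. Among type IV chains it was 3.37 for Col4a1 and 2.15 for Col4a2. Among other collagens it was 3.24 for Col6a1, 2.48 for Col19a1, 2.09 for Col12a1, 1.72 for Col6a2 and 1.59 for Col16a1. Among laminins it was 1.90 for Lama3 and 1.20 for Lamb2. The negative difference was that of Col9a3, at -0.80 (edgeR adjusted p = 0.0479). The 7-week cuprizone library is also the one with the high endothelial, pericyte and microglial sums given above, whose part was not tested.

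Among members at 5 CPM or more in at least 1 library at each week, Col4a2, Lamb2 and Col25a1 switched sides. They were past 2-fold below mock at 5 weeks and past 2-fold above it at 7 weeks. Members under that minimum at 5 weeks switched in the same way, among them Col6a1, Col19a1, Col12a1 and Col1a2. Col6a1 was 3.86-fold lower (95% interval 2.06 to 7.77) at 5 weeks and 10.8-fold higher (8.77 to 13.5) at 7 weeks. The log2 ratios of Col4a2, Lamb2 and Col25a1 differed by 4.17, 3.75 and 4.92 between these weeks. The fit of 9 libraries, under the same assumption, gave 4.20, 3.76 and 5.01. It uses the same libraries whose ratios picked out these genes, so it is no separate check. The share of all genes with such a switch was not counted. The weeks are of different batches, so these differences cannot be told apart from the batch.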

How the results depend on the processing

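The calls of Col9a3 and Col20a1 at 5.5 weeks held under other scalings, filters, tools, the libraries as deposited and the fit of 9 libraries, and depended on the mock libraries: leaving out each library in turn gave 0 to 2 members higher, 1 without mock replicate 1 and 0 without mock replicate 3, each leaving a lone mock library. No member was called lower under any of these alternatives. The libraries as deposited count a repeat as a separate mock sample, and the alternatives share the same 5.5-week libraries, so they are not separate checks. Same-numbered libraries correlated at 0.07 and -0.09 in their deviations. With 2 mock libraries the deviations of one are the opposite of the other's, so these values can neither show nor refute pairing. With the replicate block 3 members were called, Lamb1 being added at a log2 fold change of 0.70 (edgeR adjusted p = 0.00481). Replicate 2 has no mock library in that fit, which keeps fewer residual degrees of freedom than the main one. Without a low-count filter Col4a5 was the third. At 5 weeks the count at least 2-fold higher, 0 with a 5 CPM minimum, was 5 with a 1 CPM minimum, 1 with the mean of the deposited libraries, 6 with genes chosen by their 5.5-week level (added after seeing the data) and 9 called in the fit of 9 libraries, beside 14.6% of genes. The count lower, 6, was 13 with a 1 CPM minimum, 2 with a 10 CPM minimum, 13 with genes chosen by their 5.5-week level and 16 called in that fit, beside 18.5% of genes. At 7 weeks the count higher, 18, was 41 with a 1 CPM minimum and 40 called in that fit, beside 24% of genes. None was called lower there, beside 15.4% of genes. The CPM minimum and the choice at 5.5 weeks change how many genes are counted; for the rest the cause was not tested. The 5-week median log2 ratio of basement membrane collagens was -2.04 from the 1 chain at 5 CPM and 1.01 over the 4 chosen by their 5.5-week level. No called value changed sign. Of 442 recomputed log2 fold changes at 5.5 weeks 21 did, in 10 of 30 members, none of them called and none with a reported value beyond 0.23 in size, and of 117 log2 ratios at 5 and 7 weeks 3 did, in Lama2 and Col16a1 at 5 weeks. Members averaging under 1 CPM at 5.5 weeks had too few counts for small differences to be detectable at this depth.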
